A study of Drosophila melanogaster with 36 samples.

Results

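The Npc2 family of Drosophila melanogaster was followed in adult flies of 3 strains on 36 two-colour cDNA arrays. Its members were taken as the array elements whose gene symbol, current or older, is one of Npc2a to Npc2h. All 8 genes had an element, each a single clone spotted in duplicate, out of 15732 elements on the array. All 8 passed the filter on missing values, among 14866 elements that did. The family was picked with strain differences of these same arrays already known, so the differences of its members, their intervals and whether they pass the threshold used for all elements are given as a description of these arrays, with no p-value, and are no evidence for the family.

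NPC2 proteins are small sterol-binding proteins of the lysosome and the secretory pathway. In mammals NPC2 takes up cholesterol released inside the lysosome and hands it to the membrane protein NPC1, which passes it on to the rest of the cell. Insects cannot build the sterol ring and take sterols from food, both for membranes and as the raw material of the moulting hormone ecdysone. The fly genome holds a whole family of Npc2 genes beside the NPC1 homologues Npc1a and Npc1b. Npc2a is the broadly used member, and it shares its work in sterol balance and ecdysteroid supply with Npc2b. Npc2a, Npc2e and Npc2h proteins have also been shown to bind bacterial cell wall components.

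The strains were Antp73b, which carries a mutation of the homeotic gene Antennapedia, ap56f, which carries a mutation of the LIM-homeodomain gene apterous, and the wild type OregonR. All came from the same commercial supplier, and RNA was extracted from frozen adult flies and labelled as cDNA with Cy3 in channel 1 or Cy5 in channel 2. Each of the 3 strain pairs was hybridised in both colour orientations, and each strain was also hybridised against itself, which gave 9 groups of 4 arrays. The labels do not state the sex, the age or the number of the flies, whether the mutations were homozygous, or how many RNA extracts lay behind the arrays. The strains may also differ at loci other than the mutated gene. P-values and SDs therefore measure array-to-array spread only, part or all of which may be technical. In RNA of adult flies, fewer cells of a type and less RNA per cell cannot be told apart.

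The authors deposited one signed fold ratio per spot and no intensities. The values used below are centred log2 ratios, that is, the sign of the deposited fold times the log2 of its size, less the median of the array, averaged over both spots. Nothing in the labels states whether a positive fold means more signal in channel 1 or in channel 2. A value on the plus side stands for more transcript in the strain named first if the ratio is channel 1 over channel 2, and for less if it is the inverse. The side, the size and which strain lies between the others can be read, but not which of the outer strains has more transcript.

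Between 26362 and 30716 of the 31464 spots had a value on an array. The 2 spots of an element correlated across elements with r between 0.19 and 0.83 (median 0.58), and 19.1% of the deposited values were a fold of exactly 1 or -1. The smallest step next to it is 0.14 on the log2 scale, which limits how finely a small ratio is recorded. Strain differences were fitted with limma over all 36 arrays with a dye term, and an element is called where the Benjamini-Hochberg adjusted p over all 14866 elements is under 0.05. Of the genes named in the strains, Antp differed by 0.14 between Antp73b and OregonR (adjusted p = 0.099), and ap differed by 0.27 between ap56f and OregonR (adjusted p = 0.0029).

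One member, Npc2e, had far larger strain differences than the rest of the family. Its fitted difference was 0.43 on the log2 scale between Antp73b and OregonR, -0.66 between ap56f and OregonR, and 1.09 between Antp73b and ap56f, a fold of 2.13. OregonR thus lay between the mutant strains, which stood on opposite sides of it. Every other member differed by no more than 0.20 on the log2 scale in any comparison. In Antp73b against OregonR 2 of 8 members were called, beside 22.0% of all elements. Between ap56f and OregonR 3 of 8 were called, beside 15.7%, and in Antp73b against ap56f 1 of 8, beside 15.4%. The colour orientations did not overlap on the direct arrays for 2 members in Antp73b against OregonR (Npc2a and Npc2e), beside 16.6% of all elements. It was 3 members in ap56f against OregonR, with Npc2b added, beside 11.5%, and 2 in Antp73b against ap56f, beside 12.9%. The family was chosen on these contrasts, so nothing is read from these counts.

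The median difference of the 8 members was 0.07 in Antp73b against OregonR, against 0.01 over all elements. Between ap56f and OregonR both medians were -0.02, and in Antp73b against ap56f both were 0.02. Members lay on both sides of 0 in each comparison. Its members fell into 4 orders of the strains. Npc2d, Npc2e, Npc2f and Npc2g had ap56f at the minus end and Antp73b at the plus end, Npc2a and Npc2b ran from OregonR at the minus end to ap56f, Npc2c from Antp73b to OregonR, and Npc2h from OregonR to Antp73b. Of the 18 member differences that were not called, 12 changed side under some setting of the processing. Neighbours in these orders lay within 0.10 of each other for Npc2c, Npc2d, Npc2f, Npc2g and Npc2h, with 95% intervals that include 0. The same held for Antp73b and ap56f in Npc2a and for Antp73b and OregonR in Npc2b.

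**Figure D1:**
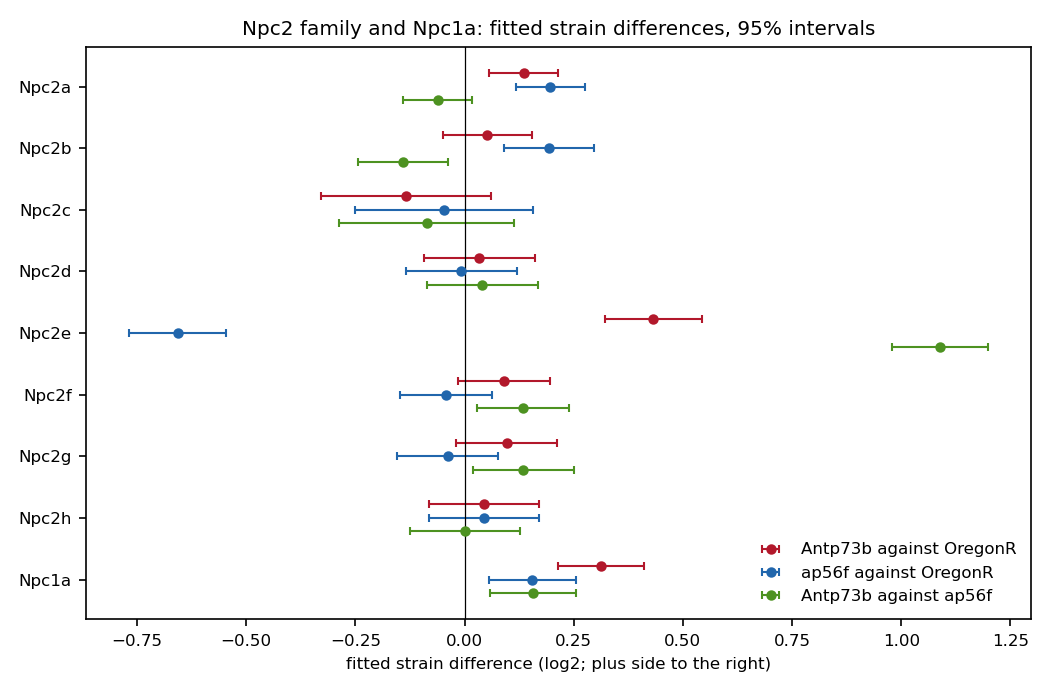
Fitted strain differences of the 8 Npc2 members and of Npc1a, one row per gene, on a log2 axis with the plus side to the right; points are limma estimates over 36 arrays, bars are 95% intervals, and colours are the 3 comparisons. Npc2e sits at 0.43, -0.66 and 1.09, while the other Npc2 members stay between -0.14 and 0.20.

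Npc2e, one of the members that binds bacterial products in vitro, is CG31410 on chromosome arm 3R. With Antp73b in channel 1 and OregonR in channel 2, its 4 arrays gave centred log2 ratios of 1.20, 0.85, 1.07 and 0.59. With the colours swapped, so that OregonR was in channel 1 and Antp73b in channel 2, they gave 0, -0.20, 0.14 and 0.14. The ranges of the orientations did not overlap, but the second set lay around 0 and not at the mirror image of the first.

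With ap56f in channel 1 and OregonR in channel 2 the Npc2e ratios were -0.43, -0.07, -0.20 and -0.59. With OregonR in channel 1 and ap56f in channel 2 they were 0.96, 1.00, 1.15 and 1.04. All 8 of these arrays were on the side the fitted difference gives, again with sizes that differ between orientations.

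With Antp73b in channel 1 and ap56f in channel 2 the Npc2e ratios were 1.48, 1.37, 1.01 and 1.65. With ap56f in channel 1 and Antp73b in channel 2 they were -0.76, -0.63, -1.08 and -0.54. These were the widest apart of the 3 strain pairs, with no overlap and a gap of more than 1 log2 unit between the closest arrays.

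**Figure D2:**
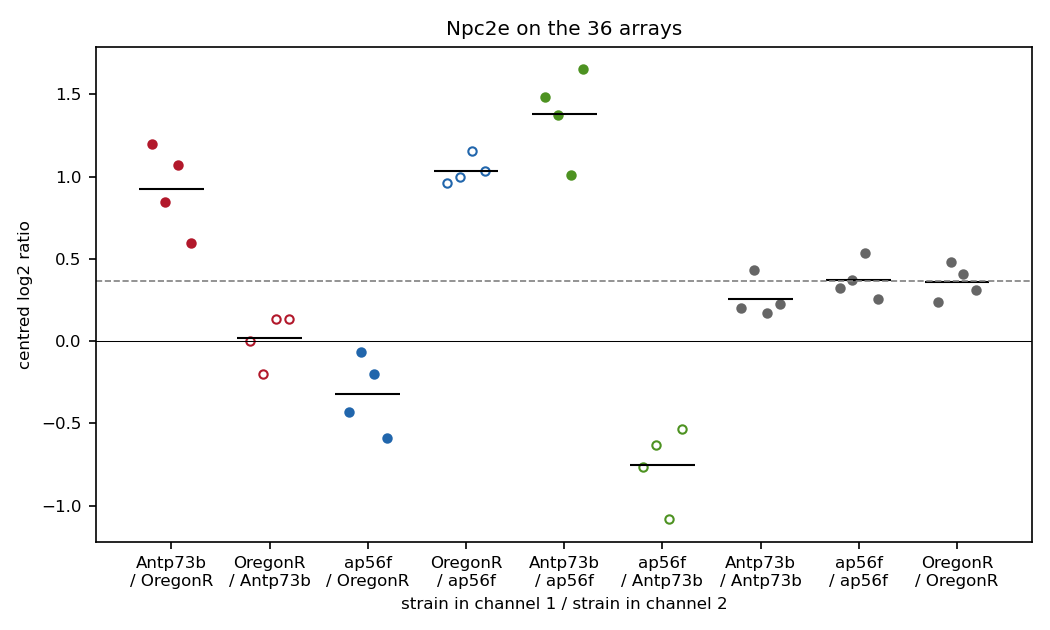
Npc2e centred log2 ratio on each of the 36 arrays, by the strain in channel 1 over the strain in channel 2; points are arrays, filled in the first orientation and open in the swapped one, grey for arrays of a strain against itself, short lines are means of 4 arrays, and the dashed line is the fitted dye offset of 0.36. Self-hybridised arrays sit between 0.17 and 0.54, and the orientations of each strain pair lie on opposite sides of the dashed line. In both pairs with ap56f they also lie on opposite sides of 0, but not in Antp73b against OregonR.

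The offset between the orientations of Npc2e was also present where no strain difference can exist. On the 12 arrays of a strain against itself its ratio was above 0 on 12 of 12, with a mean of 0.33 ± 0.12 (SD, n = 12). The means were 0.26 ± 0.12 in Antp73b, 0.37 ± 0.12 in ap56f and 0.36 ± 0.11 in OregonR (SD, n = 4 each). The dye term of the fit put the offset at 0.36 with an SE of 0.03 (limma adjusted p = 1.1e-13). A called dye offset was common on these arrays, at 61.2% of all elements, 27.6% on the plus and 33.6% on the minus side. In the family it was 6 of 8, with Npc2b, Npc2e, Npc2f and Npc2g plus and Npc2a and Npc2d minus.

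With the offset taken out, each strain difference of Npc2e can be read on the 8 arrays that hybridised that pair. Antp73b and OregonR differed by 0.45 ± 0.23, ap56f and OregonR by -0.68 ± 0.16, and Antp73b and ap56f by 1.07 ± 0.24 (SD, n = 8 arrays each). All 8 arrays of each pair were then on the same side, whereas with the offset left in it was 5 of 8 for Antp73b against OregonR and 8 of 8 for both other pairs. The direct difference between the mutants, 1.07, lay 0.07 from the 1.13 obtained by way of OregonR, with an SE of 0.13 on that gap.

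The fit over all arrays gave 95% intervals of 0.32 to 0.54 for Antp73b against OregonR, of -0.77 to -0.55 for ap56f against OregonR and of 0.98 to 1.20 for Antp73b against ap56f. In size these differences ranked 408, 77 and 32 among 14866 elements. Subsets of the same arrays, which are no independent check, were also fitted by themselves. Fitted on the earlier 2 arrays of each group by array number, the Antp73b against OregonR difference of Npc2e was 0.52, on the later 2 it was 0.34, on arrays with even numbers 0.49 and on those with odd numbers 0.38. For ap56f against OregonR the same fits gave -0.58, -0.74, -0.64 and -0.67, and for Antp73b against ap56f from 1.05 to 1.13. Array number is the only sign of order in the labels, and no batch is named.

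Both spots of Npc2e carried the pattern. It had a value at all 72 spots, with deposited folds from -2.8 to 3.4, and only 1.39% of them were at 1 or -1, against 11.1% to 26.6% for the other members. The difference between its 2 spots had an SD of 0.34 over 36 arrays, near the median of 0.32 for all elements. Its ratio spread with an SD of 0.67 over the 36 arrays, against 0.15 to 0.35 for the other members.

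**Figure D3:**
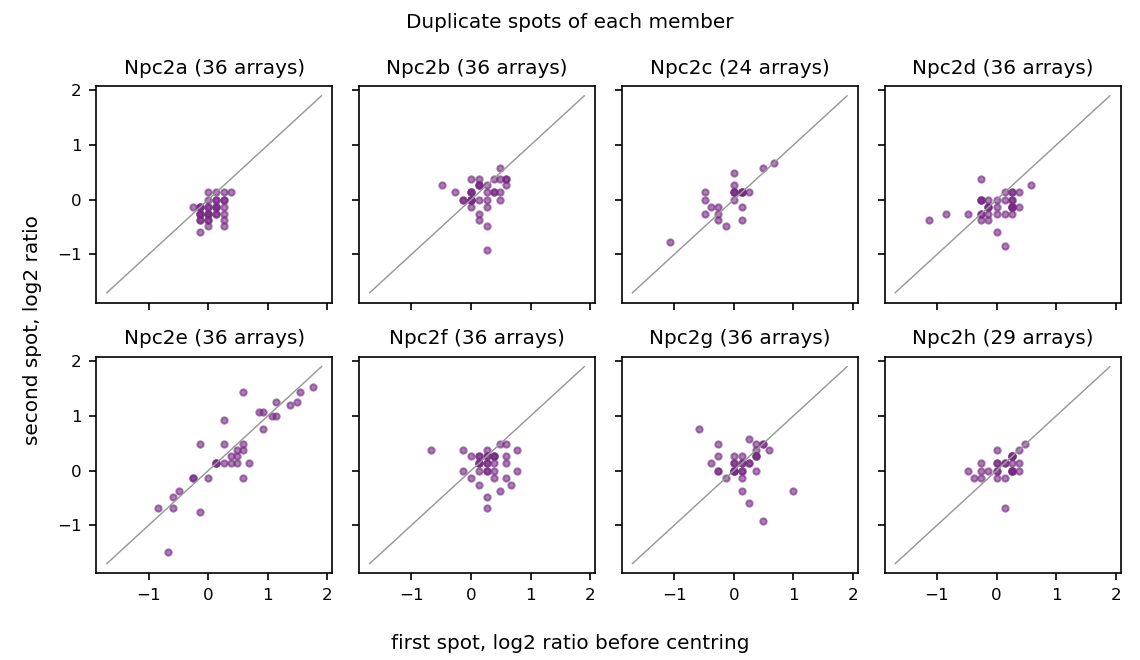
Log2 ratios before centring at the second spot against the first spot of each Npc2 member, 1 point per array with both values and the line of equality in grey. Npc2e is drawn out along the line, while the other members with a value at all spots form a cloud around 0 in which the spread between spots is as wide as the spread between arrays.

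Npc2e lies in a run of 3 consecutive family genes on chromosome arm 3R, in the order Npc2e, Npc2d, Npc2c. The other 2 were called in no comparison. Whether the clone of any member also reads the transcript of another member was not tested. Npc2d, CG12813, differed by 0.03 in Antp73b against OregonR, by -0.01 in ap56f against OregonR and by 0.04 in Antp73b against ap56f. Its 95% intervals ran from -0.13 to 0.17 over all 3 comparisons, so a difference of the size of that of Npc2e lies outside them. Its ratios overlapped between orientations in each pair, with the widest spread in the swapped arrays of ap56f in channel 1 and Antp73b in channel 2, at -0.32, -0.13, 0.20 and -0.76. Npc2d also had a dye offset of -0.09 (limma adjusted p = 0.025).

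Npc2c, CG3934, was the least well measured member. It had a value at 52 of 72 spots and on 28 of 36 arrays. With Antp73b in channel 1 and OregonR in channel 2 its ratios were 0.68, -0.93, -0.38 and -0.26. The 2 OregonR self-hybridised arrays that had a value were at -0.31 and -0.92, beside -0.93 on the array of 2 different strains farthest from 0. Its fitted differences were -0.13, -0.05 and -0.09 for Antp73b against OregonR, ap56f against OregonR and Antp73b against ap56f, with SEs near 0.10 and intervals from -0.33 to 0.16. The fit leaves out arrays with no value, so these rest on 28 arrays. Of these, 7, 6 and 5 hybridised the pair in question directly.

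Npc2a, CG7291, lies on arm 2L apart from the rest of the family. With Antp73b in channel 1 and OregonR in channel 2 it gave ratios of 0.06, 0.20, -0.06 and 0.13, and with the colours swapped -0.34, -0.13, -0.36 and -0.24. With ap56f in channel 1 and OregonR in channel 2 it gave 0.14, 0.13, 0 and 0.12, and with the colours swapped -0.14, -0.07, -0.40 and -0.26. The orientations did not overlap in either pair, though by a margin of less than 1 recorded step.

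The fitted differences of Npc2a were 0.14 (95% interval 0.06 to 0.21) for Antp73b against OregonR and 0.20 (0.12 to 0.28) for ap56f against OregonR, the larger being a fold of 1.15. Both were called on the plus side. Between the mutants it gave -0.20, -0.14, -0.14 and -0.20 with Antp73b in channel 1, and 0.07, 0.07, 0 and 0 with ap56f in channel 1, for a difference of -0.06 (-0.14 to 0.02) that was not called. Both mutants thus stood on the same side of OregonR for Npc2a, where they stood on opposite sides for Npc2e. Its call in Antp73b against OregonR was lost in each of the 4 subsets of arrays, at 0.12 to 0.15, and that in ap56f against OregonR in the arrays with even numbers, at 0.20. The 8 direct arrays alone also lost both calls, at 0.18 and 0.16.

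Npc2b, CG3153, the partner of Npc2a in sterol balance, had the same order of strains. With ap56f in channel 1 and OregonR in channel 2 it gave 0.26, 0.26, 0.48 and 0.40, and with the colours swapped 0, -0.07, 0.06 and -0.07, with no overlap. Its fitted difference there was 0.19 (95% interval 0.09 to 0.30), called on the plus side. With Antp73b in channel 1 and OregonR in channel 2 it gave -0.11, 0.06, 0.42 and 0.48, against 0.24, -0.06, -0.06 and 0.24 with the colours swapped. Those orientations overlapped, and the fitted difference was 0.05 (-0.05 to 0.16). Antp73b against ap56f was at -0.14 (-0.24 to -0.04) and just missed the threshold. The ap56f against OregonR difference of Npc2b depended on the arrays used, at 0.10 in the earlier 2 arrays of each group and 0.29 in the later 2, and of the 4 subsets it was called in the later arrays alone. The call was also lost with the first spot alone, at 0.19, with the second spot alone, at 0.20, and in the 8 direct arrays, at 0.18.

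Npc2f, Npc2g and Npc2h were called in no comparison over all 36 arrays. Npc2f, CG6164, differed by 0.09, -0.04 and 0.13 for Antp73b against OregonR, ap56f against OregonR and Antp73b against ap56f, with an SE of 0.05. Npc2g, CG11314, differed by 0.10, -0.04 and 0.13 with an SE of 0.06, and Npc2h, CG11315, by 0.04, 0.04 and 0.00 with an SE of 0.06. Npc2g and Npc2h are adjacent genes. Npc2g in Antp73b against OregonR depended on the arrays used, at 0.19 and called in the earlier 2 arrays of each group and at 0.00 in the later 2, and it was called in Antp73b against ap56f, at 0.17, when array 59 was left out. The 95% intervals of these 3 genes ran from -0.15 to 0.25, and those of Npc2f and Npc2g in Antp73b against ap56f left out 0, at 0.03 to 0.24 and 0.02 to 0.25.

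The dye offsets of these 3 genes were near or above the largest of their strain differences in size. Npc2f had a dye offset of 0.17 (limma adjusted p = 3.7e-06) and Npc2g of 0.11 (adjusted p = 0.0031), while that of Npc2h was 0.06 (adjusted p = 0.12). On self-hybridised arrays Npc2f ran from -0.07 to 0.54, Npc2g from -0.16 to 0.48 and Npc2h from -0.27 to 0.26. Npc2g had the noisiest duplicate spots of the family, with an SD of 0.49 between them. Npc2h had a value on 35 arrays, and all 4 OregonR self-hybridised arrays were on the minus side, from -0.27 to -0.14.

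**Figure D4:**
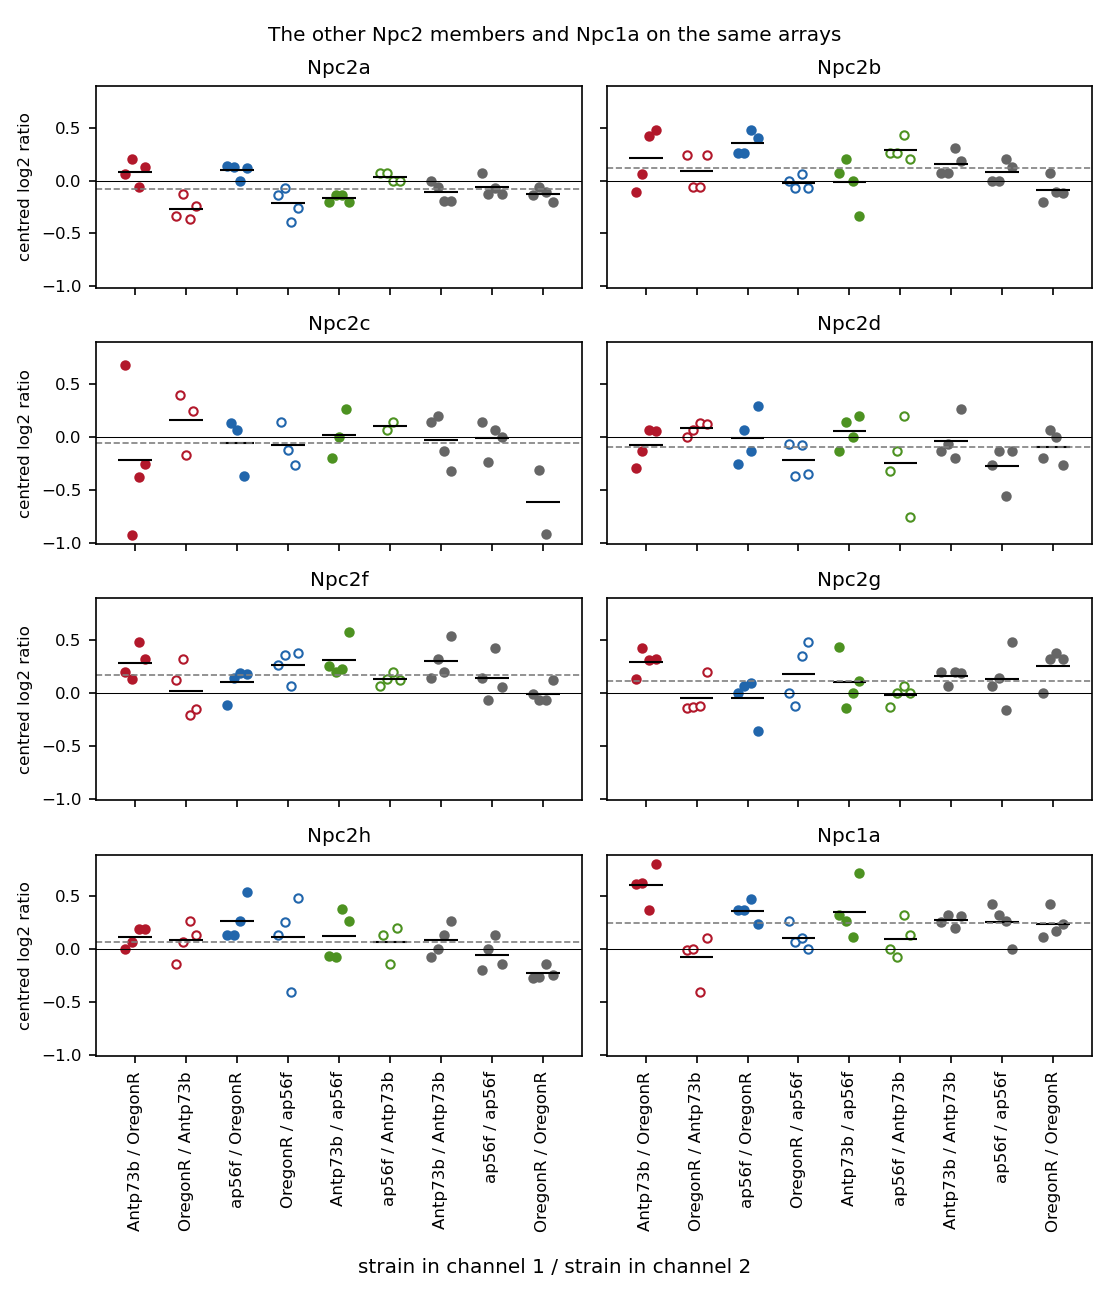
Centred log2 ratios of the other 7 Npc2 members and of Npc1a, by the strain in channel 1 over the strain in channel 2, drawn as for Npc2e on one shared axis; points are arrays, short lines are group means and dashed lines are fitted dye offsets. Npc2a separates the colour orientations of every strain pair, by small steps in its OregonR pairs. Npc2b separates them in ap56f against OregonR, and Npc1a in Antp73b against OregonR. In every pair of Npc2c, Npc2d, Npc2f, Npc2g and Npc2h the colour orientations meet or overlap.

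Across the 24 arrays of 2 different strains the 28 pairs of members correlated with r from -0.57 to 0.49 and a median of -0.08. The highest were Npc2e with Npc2g at 0.49, Npc2e with Npc2f at 0.48 and Npc2a with Npc2b at 0.44. These arrays share strains and dyes, so the values are a description. Genes of most similar pattern were taken for Npc2e and Npc2a, from the 10418 elements listed with 1 gene that had a value on all arrays.

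The 4 genes most like Npc2e over those 24 arrays were CG7953 with r = 0.97, Snx6, a sorting nexin, with r = 0.95, CG42807 with r = 0.95 and CG7381 with r = 0.94. CG7953 differed by 0.57 in Antp73b against OregonR, by -1.14 in ap56f against OregonR and by 1.71 in Antp73b against ap56f. CG42807 differed by 0.61, -0.74 and 1.35 in the same comparisons, CG7381 by 0.33, -0.76 and 1.09, and Snx6 by 0.23, -0.26 and 0.49. For Npc2a they were CG15255 with r = 0.92, CG5758 and pkm with r = 0.84 each, and CREG with r = 0.84. CREG differed by 0.30 in Antp73b against OregonR and by 0.60 in ap56f against OregonR.

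Of the other genes beside a member in the annotation, Got2, which encodes an aspartate aminotransferase and lies next to Npc2a, was called at 0.21 in Antp73b against OregonR (limma adjusted p = 0.0022) and at 0.19 in Antp73b against ap56f (adjusted p = 0.0068). It stood at 0.02 in ap56f against OregonR (adjusted p = 0.88), where Npc2a was at 0.20. Sec10, an exocyst subunit gene next to Npc2f, was called at -0.17 in Antp73b against OregonR (adjusted p = 0.025). The transcription factor gene foxo beside Npc2b, Kal1 beside Npc2f and CG15543 beside Npc2g were called in no comparison.

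Npc1a, the NPC1 homologue that exports sterol from the lysosome in most fly tissues, was measured on all 36 arrays. With Antp73b in channel 1 and OregonR in channel 2 it gave 0.61, 0.63, 0.37 and 0.81, against -0.01, 0, -0.41 and 0.11 with the colours swapped, with no overlap. The difference was 0.31 with an SE of 0.05 (limma adjusted p = 1.7e-06). It was plus, like those of Npc2a and Npc2e, on 8 of 8 direct arrays with the dye offset removed. It differed by 0.16 in ap56f against OregonR (adjusted p = 0.024) and by 0.16 in Antp73b against ap56f (adjusted p = 0.021). The ap56f against OregonR call was lost in each of the 4 subsets of arrays, at 0.12 to 0.19, and the Antp73b against ap56f call in all but the earlier 2 arrays of each group, at 0.10 to 0.22. Without the dye term, with quantile normalization, in the direct arrays or with the first spot, both of these calls were lost too. Npc1b, the NPC1 homologue of the midgut, was not analysed here because no tested element carries its name.

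The wider list of sterol uptake, transport and sensing genes had 25 tested elements of 21 genes, Npc1a among them. Not all of the 21 are sterol genes. Scp2 is in the fly a gene of a sarcoplasmic calcium-binding protein. Snmp1 serves pheromone sensing and santa-maria carotenoid uptake. Scp2 was called in no comparison, but all of these count among the 25 elements and in the medians. Snmp1, at 0.21, and santa-maria, at 0.29, are among the plus calls in Antp73b against OregonR. Snmp1, at 0.18, is also among those in Antp73b against ap56f. In Antp73b against OregonR 7 of the 25 elements were called plus and 3 minus, with a median of 0.04. For ap56f against OregonR it was 2 plus and 3 minus with a median of 0.00, and in Antp73b against ap56f 7 plus and 2 minus with a median of 0.08. Over all elements 11.9% were called plus and 10.1% minus in Antp73b against OregonR, 6.94% and 8.76% in ap56f against OregonR, and 10.2% and 5.19% in Antp73b against ap56f. These shares depend on the centring of the arrays: the plus share of all calls was 54.0%, 44.2% and 66.3% in these comparisons, against 47.5%, 53.1% and 50.2% with quantile normalization.

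The lipoprotein precursor apolpp, which carries sterols through the haemolymph, led the list with 0.48 in Antp73b against OregonR (limma adjusted p = 2.2e-10) and 0.40 in Antp73b against ap56f (adjusted p = 6.7e-08). The gut lipase and cholesterol esterase mag stood on the other side, at -0.38 in Antp73b against OregonR (adjusted p = 1.9e-06). The scavenger receptor santa-maria was at 0.29 there (adjusted p = 9e-05). In ap56f against OregonR the oxysterol-binding protein gene Osbp was at -0.23 (adjusted p = 0.0086), the lipophorin receptor LpR1 at -0.17 (adjusted p = 0.017) and usp, the partner of the ecdysone receptor, at -0.19 (adjusted p = 0.02). The second LpR1 element was at -0.04 there (adjusted p = 0.62). In Antp73b against ap56f the lipid transfer particle gene Apoltp was at 0.24 (adjusted p = 0.00028), that second LpR1 element at 0.22 (adjusted p = 0.00058; 0.11 and adjusted p = 0.18 for the first) and ScpX, a sterol carrier and thiolase, at -0.25 (adjusted p = 0.0017).

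Genes that make, regulate or inactivate ecdysteroids had 9 tested elements. Of these, 1 was called in Antp73b against OregonR (22.0% of all elements), that of shd, at 0.27 (limma adjusted p = 0.00038). The gene shd makes the active hormone from ecdysone. Its call was lost in the arrays with even numbers and in the later 2 arrays of each group. With limma 0 of 9 were called in ap56f against OregonR (15.7% of all elements) and 0 of 9 in Antp73b against ap56f (15.4%), and at an unadjusted p under 0.05 there were 0 and 1.

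Because some Npc2 proteins bind bacterial products, the immune deficiency pathway was listed as well, with 14 tested elements. In Antp73b against OregonR 5 were called plus and 1 minus, beside 11.9% plus and 10.1% minus of all elements. For ap56f against OregonR it was 2 plus and 2 minus, beside 6.94% and 8.76%. For Antp73b against ap56f it was 5 plus and 0 minus, beside 10.2% and 5.19%. The medians of the list were 0.09, 0.03 and 0.11. PGRP-SB1, a secreted peptidoglycan-cleaving enzyme, had the largest differences, at 1.09 in Antp73b against OregonR (limma adjusted p = 1e-21), 0.73 in ap56f against OregonR (adjusted p = 8.2e-15) and 0.36 in Antp73b against ap56f (adjusted p = 4.4e-06). It placed both mutants on the same side of OregonR, unlike Npc2e. The kinase subunit gene key was at 0.38 in Antp73b against OregonR (adjusted p = 6.1e-07) and at 0.23 in Antp73b against ap56f (adjusted p = 0.0034). PGRP-LA, a peptidoglycan recognition protein gene, has 2 elements. One was at 0.35 (adjusted p = 1.1e-05) and 0.19 (adjusted p = 0.028) in the same comparisons, the other at 0.15 (adjusted p = 0.033) and 0.11 (adjusted p = 0.18). PGRP-SC2, another amidase, was at -0.25 in Antp73b against OregonR (adjusted p = 0.00038) and at -0.35 in ap56f against OregonR (adjusted p = 3.6e-06). Beyond these, the adaptor gene imd was at -0.17 (adjusted p = 0.02) in ap56f against OregonR and at 0.15 (adjusted p = 0.043) in Antp73b against ap56f. The NF-kappaB factor gene Rel was at 0.18 (adjusted p = 0.048) in ap56f against OregonR and at 0.20 (adjusted p = 0.014) in Antp73b against OregonR. Tab2, which acts with the pathway's kinase Tak1, was at 0.19 in Antp73b against ap56f (adjusted p = 0.0062).

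Markers of sex and of organs differed between these strains too. Of all elements, 11.9% were called plus and 10.1% minus in Antp73b against OregonR. These shares were 6.94% and 8.76% in ap56f against OregonR, and 10.2% and 5.19% in Antp73b against ap56f. Of 16 elements of female markers such as eggshell genes, 13 were called minus in Antp73b against OregonR with a median of -0.71, and 16 in ap56f against OregonR with a median of -0.47. In Antp73b against ap56f 9 were called minus and 2 plus with a median of -0.25. The chorion protein gene Cp38 had the smallest p in each, at -1.16, -0.81 and -0.35 (limma adjusted p = 1e-28, 8.9e-22 and 4.2e-09). Male accessory gland, ejaculatory bulb and testis markers had 17 elements, of which 10 were minus and 1 plus in Antp73b against OregonR. It was 13 minus and 1 plus in ap56f against OregonR, and 6 plus with 0 minus in Antp73b against ap56f. The accessory gland gene Acp53C14a was at -0.62 in Antp73b against OregonR and at -0.69 in ap56f against OregonR (limma adjusted p = 1.6e-15 and 1.1e-16).

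Of all elements, 22.0% were called on either side in Antp73b against OregonR, 15.7% in ap56f against OregonR and 15.4% in Antp73b against ap56f. Midgut markers had 29 tested elements, and they moved on both sides. In Antp73b against OregonR 8 were plus and 13 minus, from -2.77 for the digestive lysozyme gene LysE (limma adjusted p = 7e-38) to 2.75 for the sugar-responsive glucosidase gene tobi (adjusted p = 1.8e-36). Between ap56f and OregonR 10 were plus and 7 minus, and in Antp73b against ap56f 10 plus and 16 minus. Fat body markers, of 13 elements, were mostly plus in Antp73b against OregonR, with 8 plus and 1 minus and a median of 0.21. The highest was fit at 1.45 (limma adjusted p = 7.1e-25), and the 1 minus call was Yp2 at -0.28 (adjusted p = 2.4e-05). Fat body markers had 5 plus and 4 minus in ap56f against OregonR and 7 plus and 3 minus in Antp73b against ap56f. The element of apolpp is in both this list and the sterol list. Its plus calls in Antp73b against OregonR and in Antp73b against ap56f are therefore counted in both. Levels of these markers are not given by ratios, and their part in the differences of the Npc2 members was not tested.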

How the data were processed

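The deposited values are signed fold ratios of one channel against the other, 1 for every spot, with no intensities or depth, so the number of arrays limits the precision. That unit was read from the values themselves, of which none lies between -1 and 1. Per the labels' protocols, mRNA was purified by poly(A) selection, copied into cDNA carrying Cy3 (channel 1) or Cy5 (channel 2), hybridised and scanned on a GenePix scanner. Steps after scanning were not given in the sources used here. From the deposited ratios, log2 values were computed, each array was centred on its median over all spots, and duplicate spots were averaged. An element needed values on 2 or more of the 4 arrays in every one of the 9 groups, which left out 866. Symbols came from the platform annotation, updated through a RefSeq gene table that also gave arms and neighbours.

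The model was fitted with limma 3.58.1 in R 4.3.3 (lmFit and eBayes, two-sided) with a dye intercept and a term of 1 or -1 for each mutant strain by channel, with Benjamini-Hochberg adjustment over all elements tested. The fit was tested on simulated data. Other centrings, filters, spots, array subsets, blocks and fits were tried. The named genes are all Npc2 members, Npc1a, the 4 called genes of lowest p in a pathway list and the genes beside a member. Also named are the 4 genes of most similar pattern for the 2 members with the largest differences. Of the marker lists only the foremost gene is named, with both ends of the midgut and fat body lists in Antp73b against OregonR. Scp2 and Snmp1 are named for their place in the sterol list. The comparisons share OregonR and mutant arrays. The members and lists were chosen with earlier results of these data known. A comparison of protein sequences was planned and was not run, because no sequences were used here.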

Additional observations from a re-analysis of the deposited data

Results flagged for a closer look

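Of 74 sets of 4 arrays of a member or of Npc1a, 5 held 1 array far from the other 3, its gap to the nearest exceeding Dixon's 95% critical value as a share of the whole range. With normally distributed values, chance flags about 1 in 20 such sets. These ratios come from folds recorded in coarse steps, so that share may not hold here. For Npc2a with ap56f in channel 1 and OregonR in channel 2, array 68 was at 0, where the others lay between 0.12 and 0.14, about the smallest recorded step. For Npc2f with Antp73b in channel 1 and ap56f in channel 2, array 61 was at 0.57, where the others lay between 0.20 and 0.26. Npc2g had 3 of the 5. With Antp73b in both channels its array 43 was at 0.069 and the others at 0.19 to 0.20. With OregonR in channel 1 and Antp73b in channel 2 its array 53 was at 0.20 and the others at -0.14 to -0.12. With OregonR in both channels its array 38 was at 0 and the others at 0.32 to 0.38. None of the 5 concerned Npc2e.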

How the results depend on the processing

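Results were recomputed under 55 settings, of which 36 left out 1 array each. Npc2e was called on the same side in all 55 in each comparison, at 0.33 to 0.52 in Antp73b against OregonR, -0.74 to -0.58 in ap56f against OregonR and 1.03 to 1.15 in Antp73b against ap56f over the 19 other settings, and at 0.39 to 0.45, -0.68 to -0.63 and 1.06 to 1.13 with 1 array left out. Called members numbered 3 over all comparisons, 1 in the 8 direct arrays and in arrays of even number, and 3 to 4 with 1 array left out. In Antp73b against OregonR the 2 called members became 1 with quantile normalization, direct arrays, either spot alone, the last 2 arrays, even and odd array numbers (always 2 with 1 array left out), as Npc2a lost its call at 0.10 to 0.18. In ap56f against OregonR the 3 became 1 in direct and even arrays (always 3 with 1 array left out), as Npc2a and Npc2b lost theirs. Npc2b also lost its call with either spot alone (0.19 and 0.20), in the first 2 (0.10) and in odd arrays (0.21). In Antp73b against ap56f the 1 became 2, with Npc2b called at -0.17 to -0.14, without centring, with 3 other centrings (1 of them, on the median of element averages, chosen after seeing the data), with complete elements and with place in the group as a block. It was 1 to 3 with 1 array left out, and 3 without array 59. Npc1a lost its Antp73b against ap56f call without array 61 (0.13) or 71 (0.14), and in 7 of 19 other settings, at 0.10 to 0.22, among them no dye term and quantile normalization. Its ap56f against OregonR call was lost in 10 of 19, at 0.12 to 0.19. Of 18 uncalled member values 12 changed sign under some setting.

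The sterol list had 10 calls in Antp73b against OregonR (8 to 10 with 1 array left out), but 6 in direct arrays, 6 with the first spot, 4 in the last 2, 6 in even and 5 in odd arrays. In ap56f against OregonR it had 5 (3 to 6 with 1 array left out, 3 without array 69), but 2 without the dye term, 1 with quantile normalization, 3 on 24 arrays, 1 with either spot, 2 in the first 2, 1 in the last 2 and 2 in odd arrays. With limma it had 0 in direct and 0 in even arrays, with 6 and 2 at an unadjusted p under 0.05. In Antp73b against ap56f it had 9 (7 to 10), but 4 in direct arrays, 5 with the first spot, 1 in the last 2, 5 in even and 4 in odd arrays.

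Of all elements, 3277 were called in Antp73b against OregonR (2992 to 3366 with 1 array left out), against 1972 in direct, 1589 in the last 2, 1791 in even and 1729 in odd arrays. In ap56f against OregonR it was 2335 (1970 to 2362), against 1382 without the dye term, 715 in direct arrays, 1300 and 1406 with the first and second spot, 1450 in the first 2, 866 in the last 2, 825 in even and 1305 in odd arrays. In Antp73b against ap56f it was 2288 (2048 to 2328), against 1486 without the dye term, 1091 in direct arrays, 1259 with the first spot, 933 in the last 2, 1050 in even and 1215 in odd arrays. Subsets hold fewer arrays by construction. With centring on element averages, quantile normalization and a trimmed mean, the plus share of calls was 50.8%, 47.5% and 48.9% in Antp73b against OregonR (54.0% as reported), 53.4%, 53.1% and 54.1% in ap56f against OregonR (44.2%) and 54.2%, 50.2% and 50.8% in Antp73b against ap56f (66.3%), so the larger side changed in the first of these comparisons with 2 of the 3 centrings and in the second with all 3. No paired analysis was possible because every array number occurs in 1 group alone; the blocks by place or parity sort arrays by number and pair none.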

Other observations

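The difference between the mutants can be measured on the arrays that hybridised them together or by way of OregonR. For Npc2d the direct value was 0.15 and the indirect one -0.18, a gap of -0.33 with an SE of 0.13. For Npc2g they were 0.06 and 0.29, a gap of 0.23 with an SE of 0.13. The other members had gaps between -0.16 and 0.12.

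Npc2a, the member with the smallest SE, had spots that differed on average. The first spot exceeded the second by 0.23 on average over 36 arrays, and its strain differences were 0.14 and 0.13 for Antp73b against OregonR at the first and at the second spot.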
